A study of Mus musculus with 35 samples.

Results

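The cervical spinal cord and the medulla of SCA7 mice were compared at 9 weeks of age by RNA-seq, within each mouse. The comparison used 10 of the 35 libraries of the study, from 5 of its 18 mice, and every 9-week SCA7 library of either tissue was a member. Each mouse gave 1 library per tissue, and the mouse identifiers in the library names paired them. The mice were SCA7 266Q/5Q knockins on a C57BL/6J background, which carry a long glutamine repeat in 1 allele of ataxin-7, and their WT littermates served as the reference for the same tissue difference (10 libraries, 5 mice). Both sexes were used, no treatment was given, and the study harvested the mice when they were close to death. It froze whole tissue, and describes its cord samples as the cervical segments that hold the phrenic motor pool, so each library mixes neurons, glia, vessels and attached membranes or roots.

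The medulla and the cervical spinal cord are continuous with each other, and they hold the motor pools that drive the tongue and the diaphragm. The medulla also holds the serotonin neurons of the raphe, noradrenaline and adrenaline cell groups, the visceral sensory nuclei and the precerebellar nuclei, whereas the cord is built of a sensory dorsal horn and a motor ventral horn along its whole length. Positional identity along this axis is kept into adult life by *Hox* genes, transcription factors whose order on the chromosome follows their anterior limit of expression. SCA7 is caused by the expanded repeat in ataxin-7, a subunit of a transcriptional coactivator complex, and the paired comparison shows how far the RNA of these neighbouring centers differed in mice that all carry the expansion.

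The libraries fell into separate depth ranges. Mice 4 and 5 had between 29361295 and 34672125 counts in each tissue and are called deep here, whereas mice 1 to 3 had between 106531 and 396417 counts and are called shallow. Both tissues of a mouse always fell in the same range, so depth was matched within every SCA7 pair. A count of 0 allowed up to 0.102 CPM (counts scaled to the library size) in the deep libraries and up to 28.2 CPM in the shallow ones, counting error only. The medulla library of mouse 2 stood apart, with 60.7% of its counts in the 13 mitochondrially encoded genes, against 14.2% to 16.1% in the other shallow libraries and 3.5% to 4.4% in the deep ones. The CPM of genes are also scaled by TMM, which allows for library composition. Its factor was 0.355 for this library and 1.03 to 1.22 for the other SCA7 libraries. The CPM of this library therefore stand higher than its total alone would give. The ranges also differed in kind: the mitochondrial *COX3* had 4 to 7 counts in the deep libraries and 940 to 14721 in the shallow ones, and *Mbp*, the major myelin protein, lay between 5057 and 9267 CPM in deep and between 13695 and 31209 CPM in shallow libraries. The pairs of libraries of 1 tissue and depth all differed beyond counting noise.

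**Figure D1:**
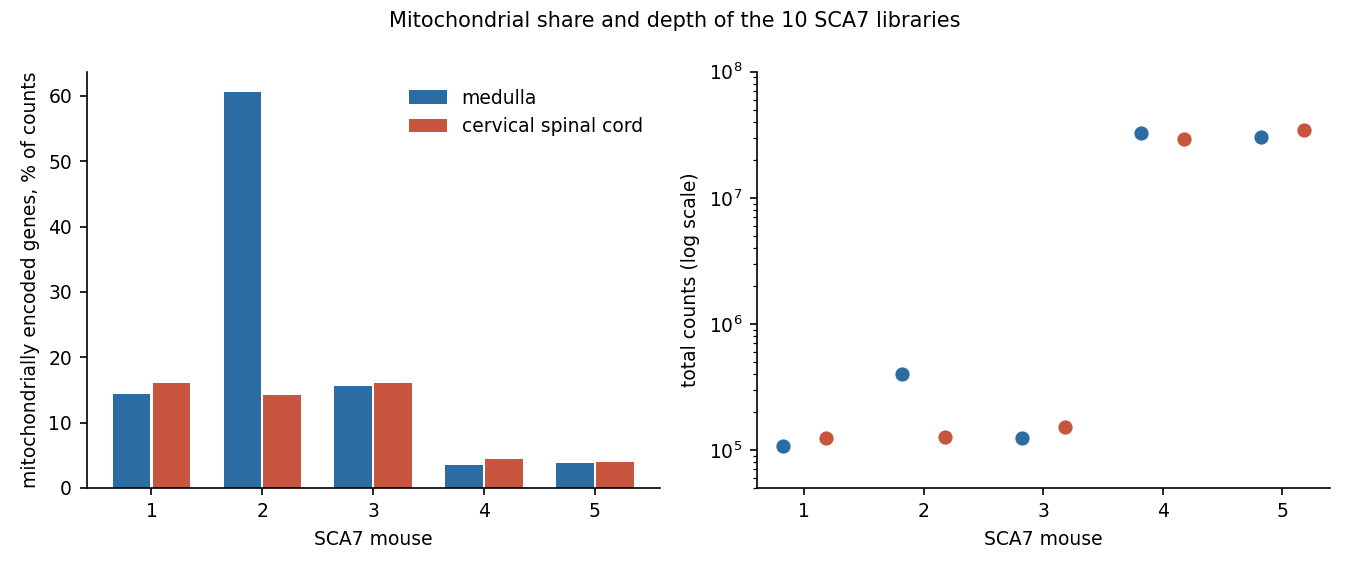
Mitochondrial share (percent of counts) and total counts (log axis) of the 10 SCA7 libraries, by tissue and mouse. The medulla library of mouse 2 reaches 60.7% mitochondrial counts, and the libraries of mice 4 and 5 hold at least 29361295 counts while those of mice 1 to 3 hold at most 396417.

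Of 19240 genes tested, 1379 differed between the tissues (7.17%), by the quasi-likelihood test of edgeR with the mouse as a block and Benjamini-Hochberg adjusted p under 0.05. The cord was higher for 491 genes (2.55%) and the medulla for 888 (4.62%), and the median log2 fold change of all genes was 0.00. These shares of all genes are the background for the list counts below. DESeq2 called 237 of the same genes tested, 74 higher in the cord and 163 higher in the medulla, and 225 of these were also called by edgeR. The edgeR count rested on a dispersion that follows gene abundance. With the single dispersion value that this release of edgeR estimates when none is supplied, 0 genes passed and 854 had an unadjusted p under 0.05. That setting was tried first, and the abundance trend was adopted after its result was seen. With mouse 2 left out the same setting called 2109 genes, among them 1374 of the 1378 calls that it could test.

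The deep pairs carried most of the calls. Without mouse 4, 66 genes passed, without mouse 5, 96, and without mouse 2, 1723. All 5 mice had the cord higher for 114 of the called genes and the medulla higher for 142, and the libraries of the tissues did not overlap for 167 genes of all those tested (0.868%). Of 2665 genes whose mean count over mice 1 to 3 reached 10, 92 were called, and 87 of these had the same sign in the deep and in the shallow pairs. The calls used both sets of pairs, so shared signs are partly built in and are no independent check. The shallow pairs alone called 0 genes. An exact test over 5 pairs cannot go below a two-sided p of 0.0625, so single genes are given here with the p from the fit over all genes.

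Posterior *Hox* genes were high in the cord and at or near 0 in the medulla. *Hoxc8*, on chromosome 15 (GRCm38, 102990539 to 102994275), had 0 counts in all 5 medulla libraries and 12, 14, 4, 4030 and 4244 counts in the cord of mice 1 to 5. The cord level was at least 2735-fold higher in the deep pairs, taking 3 counts over the group as the limit of detection, and the edgeR adjusted p was 2.84e-12. DESeq2 gave an adjusted p of 0.102 for this gene. *Hoxb9*, on chromosome 11 (96271330 to 96276595), had 1 count over the 5 medulla libraries and 6, 6, 6, 1778 and 1955 counts in the cord. Its ratio in the deep pairs was 3702 (95% counting interval 664 to 146257), and edgeR and DESeq2 gave adjusted p values of 2.74e-12 and 1.19e-12. *Hoxd8* had 0, 0, 0, 11 and 4 counts in the medulla and 5, 1, 7, 1830 and 1912 in the cord, a log2 fold change of 7.91 ± 0.21 (SE). No medulla library of these 3 genes reached a cord library in CPM.

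All 8 measured genes of *Hox* paralog groups 6 to 8 were higher in the cord by edgeR, against 2.55% of all genes, and 5 of them by DESeq2. Their median log2 fold change was 5.21, and it stayed there with *Hoxc8* set at its bound. The count was 7 without mouse 4 and 7 without mouse 5. Of groups 9 to 13, 7 of 16 genes could be tested and 6 were higher in the cord, with a median of 8.07 as fitted and of 6.57 with the 3 genes that had no medulla count set at their bounds. These 6 genes had 0 to 3 counts over the medulla libraries and passed the filter of 10 counts only through the cord. Their share and median among the genes tested were thus largely set by that filter. *Hoxa9* was 1120-fold higher (201 to 44261) with 557 and 572 cord counts in mice 4 and 5, *Hoxc9* at least 257-fold and *Hoxa10* at least 53.2-fold. DESeq2 called only *Hoxb9* among these 7. Whether the counting used strand is not given in the sources used here, so reads of antisense transcripts that overlap *Hox* genes cannot be told apart from theirs. *Hoxd13* had 7 and 13 counts in the deep medulla libraries and 0 and 3 in the deep cord libraries, and did not pass (adjusted p = 0.0777).

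The difference shrank toward the anterior groups. Of groups 4 and 5, 4 of 7 were higher in the cord, with a median log2 fold change of 1.03, and of groups 1 to 3, 2 of the 7 tested, with a median of 0.16. *Hoxc5* did not overlap between the tissues, at 0, 0, 0, 7.42 and 2.13 CPM in the medulla and 23.7, 7.46, 19.0, 13.2 and 7.66 in the cord (log2 fold change 1.29 ± 0.21). *Hoxa5* overlapped, at 26.1, 121, 7.48, 27.1 and 4.12 CPM in the medulla and 23.7, 14.9, 75.9, 35.4 and 38.7 in the cord. Its log2 fold change was 1.47 ± 0.39 (adjusted p = 0.0244), but -0.23 in the shallow pairs alone. DESeq2 called 0 genes of groups 1 to 5 in this comparison, although 6 passed in edgeR, and without mouse 4 or mouse 5 edgeR called 1 and 0.

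**Figure D2:**
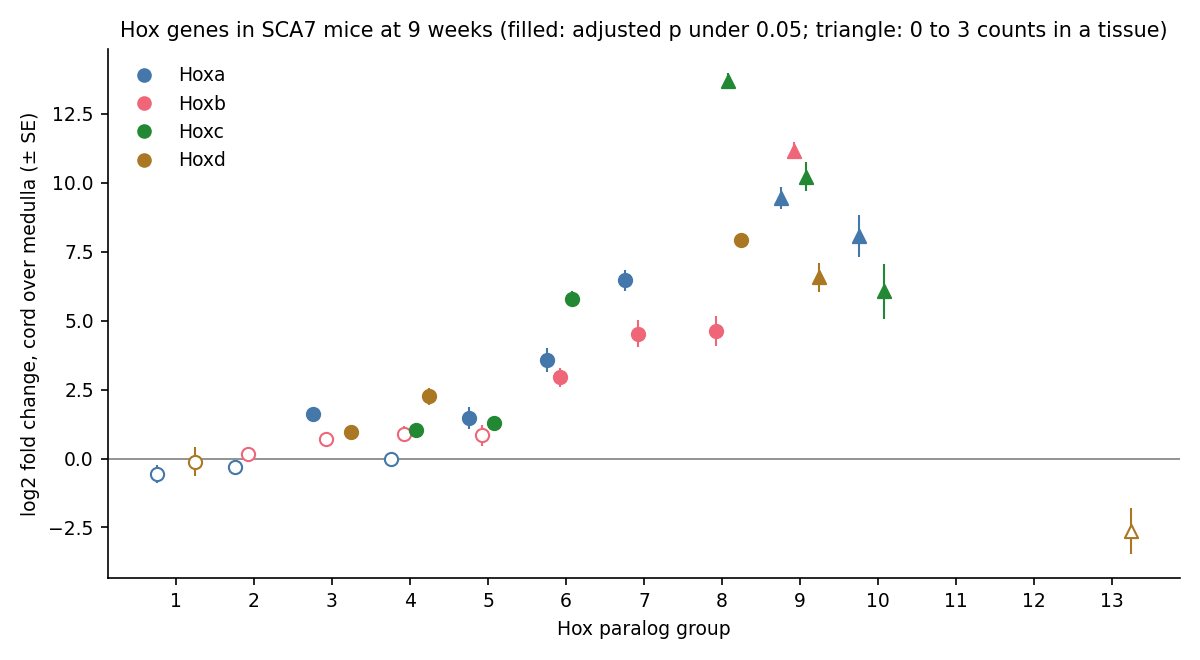
Log2 fold change (cord over medulla, ± SE) of the *Hox* genes tested in SCA7 mice, by paralog group and cluster. Filled symbols passed an edgeR adjusted p of 0.05, and triangles mark genes with 0 to 3 counts in 1 tissue, whose fitted value depends on the prior count. Values lie near 0 in groups 1 and 2 and between 2.94 and 13.7 in groups 6 to 8.

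The medulla libraries were not alike in these genes. The summed level of groups 6 to 8 was 139, 121, 0, 27.8 and 1.8 CPM in the medulla of mice 1 to 5 and between 335 and 451 CPM in the cord. *Hoxb8* alone had 447 counts in the medulla of mouse 4 and 8 in that of mouse 5, and 13, 8 and 0 in those of mice 1 to 3. All 5 medulla libraries lay below all 5 cord libraries, where *Hoxb8* had 166, 186, 171, 121 and 154 CPM (log2 fold change 4.63 ± 0.53, edgeR adjusted p = 7.89e-06, DESeq2 0.0272). The level at which each medulla was cut is not given in the sources used here, and its part in this spread was not tested.

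MicroRNA genes lie inside the *Hox* clusters, and few reads were counted over their precursors. *Mir10b*, beside *Hoxd4*, had 0 counts in every medulla library and 0, 1, 0, 17 and 14 in the cord, at least 10.2-fold higher in the deep pairs (edgeR adjusted p = 0.00294, DESeq2 1). *Mir10a* had 3 and 1 counts in the deep medulla libraries and 8 and 14 in the deep cord libraries (adjusted p = 0.0926). *Mir196b* had 6 and 2 counts and *Mir196a-1* 2 and 1 in the deep cord libraries, with 0 in the medulla, too few to test. These counts come from a total RNA library and may be precursor or host transcript, not the mature molecule. The mature RNAs (RefSeq, GRCm38.p6) are shown because they form 2 seed families, with the seed (bases 2 to 8) in capitals:
mmu-miR-10a-5p: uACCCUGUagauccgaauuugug
mmu-miR-10b-5p: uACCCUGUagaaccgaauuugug
mmu-miR-196a-5p: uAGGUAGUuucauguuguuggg
mmu-miR-196b-5p: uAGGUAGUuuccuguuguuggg
The 5p arm of *Mir10b* lies at chr2:74726074-74726096 on the plus strand and that of *Mir10a* at chr11:96317186-96317208, also plus. That of *Mir196a-1* lies at chr11:96265187-96265208 (plus) and that of *Mir196b* at chr6:52230129-52230150 (minus).

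Promoters of called *Hox* genes were searched for TTTAT, the core that posterior HOX proteins favor, on both strands of the 250 bases before the start. The table of RefSeq promoters held 8 promoters of 7 called genes of groups 6 to 10, and 4 of the 8 carried the motif, against 37.3% of 32851 promoters of the same length. *Hoxb8* held 6 matches and 12 CG pairs and *Hoxd8* 0 matches and 6 CG pairs, the median of all promoters being 6 pairs. Both are shown as called members of paralog group 8 with many matches and with none, the matches in capitals (TTTAT, or ATAAA on the other strand). *Hoxb8* is chr11:96281655-96281904 and *Hoxd8* chr2:74704365-74704614, both GRCm38.p6 and plus strand:
Hoxb8: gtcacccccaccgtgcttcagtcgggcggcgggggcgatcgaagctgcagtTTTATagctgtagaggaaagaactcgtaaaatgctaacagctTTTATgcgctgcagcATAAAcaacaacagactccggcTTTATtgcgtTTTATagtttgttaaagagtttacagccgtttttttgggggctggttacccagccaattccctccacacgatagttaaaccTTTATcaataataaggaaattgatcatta
Hoxd8: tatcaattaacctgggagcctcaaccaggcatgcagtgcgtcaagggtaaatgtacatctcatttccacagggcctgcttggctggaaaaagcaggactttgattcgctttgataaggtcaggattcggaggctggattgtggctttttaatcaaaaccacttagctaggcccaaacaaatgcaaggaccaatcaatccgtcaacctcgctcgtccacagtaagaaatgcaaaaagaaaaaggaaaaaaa
A match describes these letters and not a bound site.

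Beside the *Hox* genes, a small group of genes was higher in the cord with modest fold changes in every mouse. *Cdkn1c*, a cell cycle inhibitor, had 8.71, 28.5, 7.48, 19.8 and 19.2 CPM in the medulla and 15.8, 29.8, 25.3, 41.9 and 38.5 in the cord (log2 fold change 1.03 ± 0.09, adjusted p = 6.79e-07). *Mybpc1*, a myosin-binding protein, was at 0 in the 3 shallow medulla libraries and at 3.01 and 1.75 CPM in the deep ones, below its 6.33 to 10.2 CPM in the cord (1.89 ± 0.19). *Frzb*, a secreted Wnt inhibitor, also separated the tissues, at 0 to 8.71 CPM in the medulla and 12.3 to 23.7 CPM in the cord (1.33 ± 0.16). The transcription factor *Ebf3* (1.12 ± 0.13), the calcium sensor *Syt10* (1.83 ± 0.20), the kinase *Stk32a* (1.21 ± 0.12) and the protease inhibitor *A2m* (1.13 ± 0.12) were higher in the cord of all 5 mice, with ranges that overlapped between the tissues. DESeq2 called all 7.

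**Figure D3:**
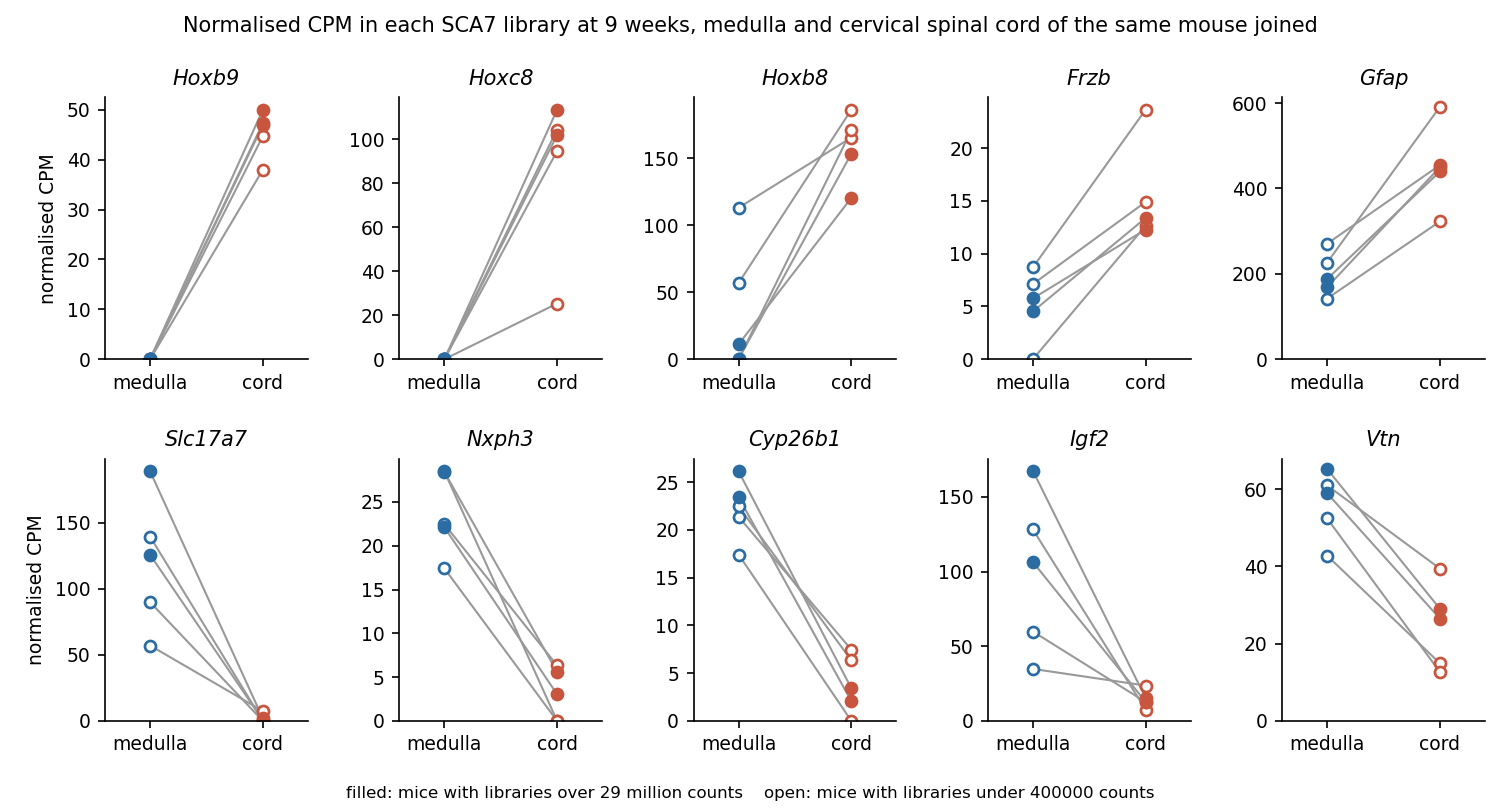
CPM of 10 leading genes in both tissues of each SCA7 mouse, with the libraries of a mouse joined by a line, filled for deep and open for shallow libraries. Every line for the *Hox* genes climbs to the cord, and every line for *Igf2* and *Slc17a7* falls to it.

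On the medulla side, the genes of the monoamine neurons stood out. Of 14 list members tested, 9 were higher in the medulla, against 4.62% of all genes, and 0 in the cord, with a median log2 fold change of -2.27. DESeq2 called 6 and edgeR 6 without mouse 4 and 6 without mouse 5. The summed level of the list was 114 to 269 CPM in the medulla and 37.3 to 127 CPM in the cord, and the medulla was higher in 5 of 5 mice. *Tph2*, the rate-limiting enzyme of neuronal serotonin synthesis, had 0, 1, 2, 1239 and 1019 counts in the medulla and 0, 0, 0, 23 and 54 in the cord (-4.89 ± 0.22, adjusted p = 1.94e-09). *Slc6a4*, the serotonin transporter, had 1, 1, 2, 485 and 380 counts against 0, 0, 0, 0 and 8 (-6.66 ± 0.41), and *Slc18a2*, which loads monoamines into vesicles, had a log2 fold change of -5.95 ± 0.24. Both were called by DESeq2 as well.

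The noradrenaline genes moved to the same side. *Dbh*, which makes noradrenaline from dopamine, did not overlap between the tissues, at 8.71, 14.2, 15.0, 9.07 and 6.63 CPM in the medulla and 0, 0, 0, 0.0844 and 0.744 CPM in the cord (-4.17 ± 0.41). *Th*, the first enzyme of catecholamine synthesis, had 2, 0, 0, 472 and 868 counts in the medulla and 0, 0, 1, 63 and 89 in the cord (-3.13 ± 0.22). *Slc6a2*, the noradrenaline transporter, was seen in the deep pairs alone, with 287 and 244 counts in the medulla and 4 and 11 in the cord (-5.10 ± 0.34). *Ddc*, the decarboxylase shared by both pathways, differed less (-1.27 ± 0.11), and its cord level was 16.7 and 17.9 CPM in mice 4 and 5. *Slc6a3*, the dopamine transporter, had 873 counts in the medulla of mouse 5 and 31 in that of mouse 4, so its log2 fold change of -5.67 ± 0.84 rests on 1 library, and DESeq2 gave an adjusted p of 1.

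Transcription factors of the hindbrain's visceral and precerebellar nuclei gave 6 of 10 genes higher in the medulla (all genes 4.62%) and 0 in the cord (median -1.42). DESeq2 called 3, and edgeR 2 without mouse 4 and 3 without mouse 5. *Barhl1* (-3.13 ± 0.26) and *Lhx9* (-2.76 ± 0.28), transcription factors of rhombic lip derivatives, were called by both tools. *Slc6a4* and *Dbh* were counted in all 5 medulla libraries and *Hoxb9* and *Hoxc8* in all 5 cord libraries. These genes were chosen with their values in this comparison known, and their counts in the shallow libraries were small. Their presence is therefore no test of the tissue labels or of admixture.

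Genes of cerebellar granule and unipolar brush neurons are shared by the cochlear nuclei, and cerebellum attached to a dissected medulla would add them. They were higher in the medulla for 10 of 15 members (all genes 4.62%) and in the cord for 0 (median -1.05). DESeq2 called 4, and edgeR called 4 without mouse 4 and 4 without mouse 5. *Cbln3*, which pairs with cerebellin at granule cell synapses, had 34.8, 7.12, 22.5, 11.5 and 12.9 CPM in the medulla and 15.8, 0, 0, 1.44 and 1.97 CPM in the cord (-2.82 ± 0.20). *Fat2*, a granule cell cadherin, had 0, 0, 2, 417 and 769 counts against 1, 0, 0, 1 and 0, and DESeq2 gave it an adjusted p of 1. *Gabra6*, the receptor subunit typical of granule cells, had 0, 1, 1, 200 and 194 counts in the medulla and 0, 0, 0, 0 and 6 in the cord. *Zic1* and *Zic2*, transcription factors of dorsal hindbrain and cerebellum, had log2 fold changes of -1.06 ± 0.09 and -2.12 ± 0.14, and DESeq2 called both. How much of this came from medulla neurons and how much from attached cerebellum cannot be told apart in whole tissue.

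Glutamate genes split by transporter. *Slc17a7*, the vesicular transporter VGLUT1 (chromosome 7, 45163921 to 45176139), had 139, 57.0, 89.8, 126 and 189 CPM in the medulla and 0, 7.46, 0, 0.478 and 1.87 CPM in the cord (-7.04 ± 0.20, edgeR adjusted p = 2.84e-12, DESeq2 6.28e-16). *Slc17a8*, VGLUT3, was also higher in the medulla (-2.17 ± 0.22), and *Grin2c*, an NMDA receptor subunit, was higher there in 5 of 5 mice (-1.51 ± 0.10). *Slc17a6*, VGLUT2, which most medullary and spinal excitatory neurons use, had 210 CPM in the medulla and 252 CPM in the cord on average, and did not pass (0.13 ± 0.14, adjusted p = 0.744). The list as a whole had 1 of 15 genes higher in the cord, the metabotropic receptor *Grm5* (0.63 ± 0.10), and 3 higher in the medulla, with a median of -0.01. Without mouse 4 or mouse 5 the counts were 0 and 2.

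Inhibitory genes divided by receptor subunit. *Gabrb2*, a beta subunit of the GABA-A receptor, had 17.4, 49.9, 29.9, 112 and 130 CPM in the medulla and 31.5, 29.8, 6.33, 57.0 and 56.7 CPM in the cord (-1.08 ± 0.10), higher in the medulla in 4 of 5 mice, and the tissues overlapped. *Gad2*, which makes GABA, was also higher in the medulla (-0.82 ± 0.11), and DESeq2 called both. The alpha subunits *Gabra2* (0.54 ± 0.12), *Gabra3* (0.53 ± 0.11) and *Gabra5* (0.64 ± 0.11) were higher in the cord by edgeR and not by DESeq2. *Slc6a5*, the glycine transporter of glycinergic neurons, had a log2 fold change of 0.44 ± 0.18 and did not pass (adjusted p = 0.186). Over the 19 genes of glycine and GABA transmission, 3 were higher in each tissue, against 2.55% of all genes in the cord and 4.62% in the medulla, and the median was 0.04. Without mouse 4 or mouse 5, 0 were higher in the cord and 1 in the medulla, and without mouse 2 the counts were 7 and 3.

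Other genes higher in the medulla marked no single list. *Cyp26b1*, which degrades retinoic acid, had 17.4, 21.4, 22.5, 23.4 and 26.1 CPM in the medulla and 0, 7.46, 6.33, 2.05 and 3.41 CPM in the cord (-3.17 ± 0.16, adjusted p = 4.75e-11). *Nxph3*, a ligand of neurexins (-2.58 ± 0.15), *Zfp385b* (-1.65 ± 0.11) and *Nnat*, neuronatin (-1.47 ± 0.09), likewise had every medulla library above every cord library. *Igfbp5*, which binds insulin-like growth factors, was lower in the cord of all 5 mice (-2.04 ± 0.10), with 15.8 CPM in the cord and 17.4 CPM in the medulla of mouse 1.

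Motor neuron genes were higher in the cord. Of 14 members, 10 passed (all genes 2.55%) and 0 were higher in the medulla (median 0.77), while DESeq2 called 3. Without mouse 4 the edgeR count was 0 and without mouse 5 it was 1. The summed level was higher in the cord in 5 of 5 mice, at 316 to 662 CPM against 139 to 255 CPM. *Chat*, which makes acetylcholine, separated the tissues, at 17.4, 7.12, 7.48, 13.3 and 16.2 CPM in the medulla and 31.5, 22.4, 25.3, 28.9 and 26.8 CPM in the cord (0.93 ± 0.11, edgeR adjusted p = 2.8e-05, DESeq2 0.0099). *Slc5a7*, the choline transporter, was higher in all 5 mice (0.78 ± 0.11), and so were *Slc18a3*, the vesicular acetylcholine transporter (0.70 ± 0.13), and *Prph*, peripherin (0.87 ± 0.12). The transcription factors *Mnx1* and *Isl2* of spinal somatic motor neurons had the largest fold changes of the list, with 12 and 1 counts of *Mnx1* in the deep medulla libraries and 85 and 93 in the deep cord libraries (3.77 ± 0.43) and a log2 fold change of 2.10 ± 0.27 for *Isl2*. *Isl1*, also used by hindbrain neurons, did not pass (0.04 ± 0.26, adjusted p = 0.972). In bulk tissue fewer cells of a type and less RNA per cell cannot be told apart, here and in every list that follows.

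Dorsal horn peptide and interneuron genes were mixed, with 11 of 25 higher in the cord (all genes 2.55%) and 2 in the medulla (4.62%), at a median of 0.65. DESeq2 called 1 of them, *Nts*, and edgeR called 1 in the cord without mouse 4 and 1 without mouse 5. The summed level lay between 284 and 519 CPM in the cord and between 369 and 549 CPM in the medulla, so the ranges overlapped. *Tac2*, a tachykinin precursor, had 48 and 11 counts in the deep medulla libraries and 372 and 524 in the deep cord libraries (3.79 ± 0.39). *Nmu*, the peptide neuromedin U, had 0, 0, 0, 25 and 1 counts against 1, 2, 1, 92 and 128 (3.16 ± 0.50). *Cck*, cholecystokinin, kept every cord library above every medulla library (1.09 ± 0.15), and the dorsal horn transcription factors *Tlx3* (1.67 ± 0.31) and *Prrxl1* (1.24 ± 0.20) passed. *Trh*, thyrotropin-releasing hormone, which raphe neurons release, was higher in the medulla (-2.77 ± 0.32), with 1496 counts in mouse 4 and 355 in mouse 5, and so was *Crh*, corticotropin-releasing hormone (-2.13 ± 0.32).

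**Figure D4:**
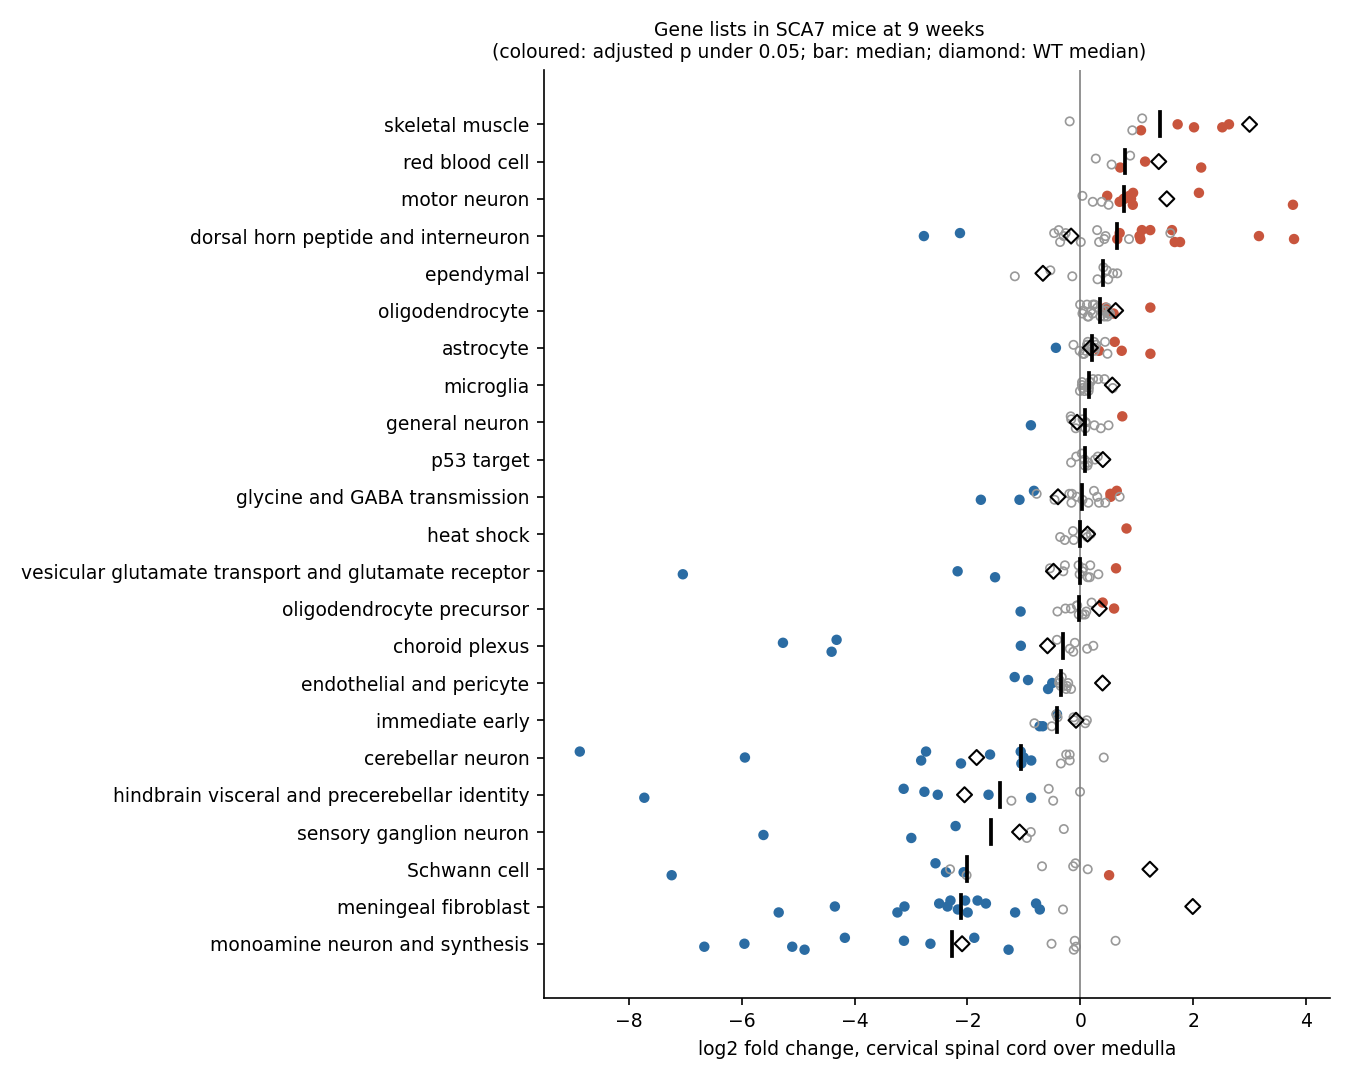
Log2 fold change (cord over medulla) of each member of 23 gene lists in SCA7 mice, with a bar at the list median and a diamond at the median of the same list in WT mice. Filled points passed an edgeR adjusted p of 0.05. The monoamine, meningeal and hindbrain lists lie to the medulla side and the motor neuron list to the cord side, and the WT diamond of the meningeal and Schwann lists lies on the opposite side from the SCA7 bar.

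Glial differences were smaller. *Gfap*, the intermediate filament of astrocytes (chromosome 11, 102887336 to 102897200), had 226, 271, 142, 188 and 169 CPM in the medulla and 591, 455, 323, 440 and 450 CPM in the cord (1.24 ± 0.15, edgeR adjusted p = 3.32e-05, DESeq2 5.37e-15). The lowest cord library was above the highest medulla library. The astrocyte glutamate transporters went opposite ways. *Slc1a2*, GLT-1, had 174, 92.6, 120, 482 and 422 CPM in the medulla and 221, 224, 272, 689 and 731 CPM in the cord (0.73 ± 0.18, edgeR adjusted p = 0.0155, DESeq2 0.0012). *Slc1a3*, GLAST, had 209, 135, 135, 150 and 144 CPM in the medulla and 118, 119, 127, 106 and 110 CPM in the cord (-0.43 ± 0.10, edgeR adjusted p = 0.00997, DESeq2 0.0236). *Slc1a2* ran in the same direction in 5 of 5 mice, and so did *Slc1a3*.

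Of the 23 astrocyte genes, 4 were higher in the cord (all genes 2.55%) and 1 in the medulla (4.62%), with a median of 0.20. Without mouse 2 the counts were 9 and 1. Without mouse 4 or mouse 5, 1 gene passed, higher in the cord. *Aqp4*, the water channel of astrocyte endfeet, had a log2 fold change of 0.44 ± 0.13 and did not pass (adjusted p = 0.0551). *Gja1*, a gap junction protein, and *Aldh1l1*, a folate enzyme, had values of 0.12 ± 0.11 and 0.04 ± 0.09. Among 10 genes taken from the study, *Gfap* and genes of transporters, a pump and a channel, 3 were higher in the cord and 2 in the medulla (median 0.15), and without mouse 4 or mouse 5 the counts were 1 and 1. *Slc7a11*, the cystine-glutamate exchanger that astrocytes and meningeal cells use, was higher in the medulla (-1.95 ± 0.16, DESeq2 adjusted p = 1.33e-06), with 17.4 and 12.7 CPM in the deep medulla libraries and 4.19 and 3.53 CPM in the deep cord libraries. *Slc6a9*, the glial glycine transporter, did not pass (0.16 ± 0.12), and *Slc7a10*, an astrocyte transporter of serine and glycine, was 0.33 ± 0.09 higher in the cord (adjusted p = 0.0279, DESeq2 0.952). The study chose these genes on mice that include these, so they are no independent evidence.

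Of 23 oligodendrocyte genes, 4 were higher in the cord and 0 in the medulla by either tool (median 0.36), against 2.55% of all genes higher in the cord by edgeR. Without mouse 2, whose medulla library was the mitochondrial one, 14 of the list passed. Without mouse 4 or mouse 5, 0 passed. *Klk6*, a protease of spinal oligodendrocytes, had 424 and 376 counts in the deep medulla libraries and 938 and 988 in the deep cord libraries (1.24 ± 0.15), and *Ermn*, a cytoskeletal protein of myelin, had a log2 fold change of 0.59 ± 0.10. The abundant myelin genes did not pass with 5 mice: *Mbp* 0.48 ± 0.43, *Mobp* 0.12 ± 0.27 and *Mog* 0.19 ± 0.11. In mouse 2 alone, *Mbp* had a higher CPM in the medulla (31209) than in the cord (26221). This order rests on the TMM factor of 0.355 for that medulla library.

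The precursor list had 2 of 13 genes higher in the cord, *Enpp6* and *Vcan*, and *Bmp4* higher in the medulla, with DESeq2 calling 0. The microglial list had 0 of 15 calls in either direction by edgeR and by DESeq2 (median 0.15), with *P2ry12*, a purine receptor of resting microglia, at 0.57 ± 0.22 (adjusted p = 0.154). Of 12 general neuronal genes, the light neurofilament *Nefl* was higher in the cord (0.74 ± 0.20, DESeq2 adjusted p = 0.000422) and *Syt1*, a synaptic vesicle calcium sensor, in the medulla (-0.88 ± 0.13, DESeq2 adjusted p = 5.26e-05). Without mouse 4 or mouse 5, edgeR called 0 genes of the precursor and the general neuronal lists. *Atxn7* itself had 60.9, 42.7, 15.0, 39.2 and 47.1 CPM in the medulla and 63.1, 59.6, 25.3, 43.8 and 52.7 CPM in the cord. The cord was higher in 5 of 5 mice, but the log2 fold change of 0.17 ± 0.08 did not pass (adjusted p = 0.332, DESeq2 1), and the counts do not separate the knockin from the normal allele.

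Genes of meningeal fibroblasts were higher in the SCA7 medulla. Of 16 members 15 passed (all genes 4.62%) and 0 were higher in the cord (median -2.11). DESeq2 called 8, and edgeR called 4 without mouse 4 and 9 without mouse 5. The summed level was 165, 313, 195, 542 and 340 CPM in the medulla and 134, 127, 94.9, 160 and 123 CPM in the cord, so the groups did not overlap. *Igf2*, an insulin-like growth factor made by the leptomeninges and choroid plexus (chromosome 7, 142650768 to 142666816), had 34.8, 128, 59.9, 168 and 106 CPM in the medulla and 23.7, 7.46, 12.7, 15.3 and 12.7 CPM in the cord (-3.24 ± 0.13, edgeR adjusted p = 2.74e-12, DESeq2 2.87e-08). *Mgp*, matrix Gla protein, had 8.71, 14.2, 7.48, 21.6 and 16.1 CPM in the medulla and 0, 0, 0, 5.06 and 3.43 CPM in the cord (-2.17 ± 0.15). *Ogn*, a proteoglycan (-3.12 ± 0.18), and *Slc13a4*, a sulfate transporter (-4.35 ± 0.25), passed in both tools. *Col1a2*, a collagen chain, had a log2 fold change of -0.31 ± 0.14 and did not pass.

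Vessel genes went partly the same way. *Tagln*, a smooth muscle protein, had 1, 1, 2, 553 and 484 counts in the medulla and 0, 0, 1, 76 and 83 in the cord (-2.70 ± 0.17). *Vtn*, vitronectin, which brain pericytes make, had 60.9, 42.7, 52.4, 65.2 and 58.9 CPM in the medulla and 39.4, 14.9, 12.7, 29 and 26.5 CPM in the cord (-1.16 ± 0.09). Neither gene overlapped between the tissues in CPM. For *Tagln* this rested on 1 count in the medulla of mouse 2 against 1 in the cord of mouse 3. For *Vtn* the nearest values were 42.7 CPM in the medulla of mouse 2 and 39.4 CPM in the cord of mouse 1. DESeq2 called both genes. Of 13 endothelial and pericyte genes, 4 were higher in the medulla (all genes 4.62%), at a median of -0.35. Among them *Cdh5*, the junctional cadherin of endothelium, was at -0.93 ± 0.16 and *Cldn5*, a tight junction claudin, at -0.57 ± 0.16. DESeq2 called *Vtn* alone, and edgeR called 0 without mouse 4 and 1 without mouse 5. Of 10 choroid plexus genes tested, 4 were higher in the medulla (all genes 4.62%). DESeq2 called 1, and edgeR called 1 without mouse 4 and 2 without mouse 5. *Ttr*, transthyretin, had 2, 19, 5, 622 and 82 counts in the medulla and 0, 0, 1, 18 and 10 in the cord (-4.41 ± 0.32), so its medulla level in the deep libraries differed between mouse 4 (15.6 CPM) and mouse 5 (2.24 CPM).

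Several root and muscle genes rested on single libraries. Of 11 Schwann cell genes tested, 4 were higher in the medulla (all genes 4.62%) and 1 in the cord (2.55%), at a median of -2.02, and DESeq2 called 1. Without mouse 4, edgeR called 0 and the median was -0.03. *Ngfr*, the neurotrophin receptor p75, had 299 and 225 counts in the deep medulla libraries and 36 and 53 in the deep cord libraries (-2.57 ± 0.25, DESeq2 adjusted p = 0.000288). Of 6 sensory ganglion genes tested, 3 were higher in the medulla, with 1 called by DESeq2, 0 by edgeR without mouse 4 and 1 without mouse 5. *Scn10a*, a sodium channel of nociceptors, had its 96 medulla counts in mouse 4 alone.

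Of 8 skeletal muscle genes, 5 were higher in the cord (all genes 2.55%), at a median of 1.41. DESeq2 called 0, and edgeR called 0 without mouse 4 and 2 without mouse 5. *Ckm*, muscle creatine kinase, had 350 counts in the cord of mouse 4 and 7 in that of mouse 5, and 71 and 0 in their medullae. *Acta1*, skeletal actin, was higher in the cord in 5 of 5 mice (1.07 ± 0.27), at 50.6 to 96.9 CPM in the shallow and 1.18 and 7.12 CPM in the deep cord libraries. The part of attached roots, muscle, meninges and plexus in the differences above was not tested.

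Stress and activity genes differed little. Of 8 heat shock genes only *Hspb1*, a small chaperone, passed, higher in the cord (0.80 ± 0.13, edgeR adjusted p = 0.000724, DESeq2 0.0128). The p53 target list had 0 of 9 calls by edgeR and by DESeq2, with *Cdkn1a*, the p21 inhibitor, at 0.13 ± 0.10 and *Mdm2* at 0.14 ± 0.09. Of 11 immediate early genes, *Arc* (-0.72 ± 0.15), *Fos* (-0.67 ± 0.16) and *Dusp1* (-0.41 ± 0.11) were higher in the medulla by edgeR (all genes 4.62%), and DESeq2 called 0. Of 6 red blood cell genes, 3 were higher in the cord (all genes 2.55%), at a median of 0.79, and DESeq2 called 0. Among them was *Hbb-bs*, a beta globin with a near-identical copy that makes its count uncertain. It had 218 and 623 counts in the deep medulla libraries and 317 and 1206 in the deep cord libraries. Without mouse 4 or mouse 5, edgeR called 0 heat shock, immediate early and red blood cell genes. The ependymal list had 0 of 9 calls with either tool. Mitochondrially encoded genes had 0 of 13 calls, with a median of -0.44 that was 0.25 in the deep pairs and -0.94 in the shallow ones.

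The same tissue difference was then compared between genotypes. In WT mice 365 of 18969 genes passed (238 higher in the cord and 127 in the medulla), and DESeq2 called 73. The depths were not matched within WT mice 1 and 2, where 1 tissue was deep and the other shallow. A test of the difference itself, the interaction of genotype and tissue in edgeR, called 824 of 19838 genes (4.15%), 232 more toward the cord in SCA7 and 592 more toward the medulla. With the mice of matched depth alone it called 730, of which 665 were shared. In that fit WT mouse 5 was the only WT mouse with both libraries deep, and WT mice 3 and 4 were shallow in both tissues. DESeq2 called 14, edgeR without the mouse block 11, and edgeR without WT mouse 5 called 30, so the calls of single genes varied with the fit.

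Positional and neuronal lists differed in how many genes were called for the interaction, against 4.15% of all genes. The monoamine list had a median of -2.27 in SCA7 and -2.10 in WT mice, with 2 of its 14 genes called for the interaction, and the hindbrain list had medians of -1.42 and -2.05, with 3 of 10. *Slc17a7* had a log2 fold change of -7.04 in SCA7 and -6.88 in WT mice (interaction -0.33 ± 0.40, adjusted p = 0.955), *Tph2* of -4.89 and -4.69 (adjusted p = 0.895) and *Hoxc8* of 13.7 and 11.9 as fitted (adjusted p = 0.852). *Hox* groups 6 to 8 had medians of 5.21 and 3.82, and 6 of 8 were called toward the cord in SCA7, 3 of them with the mice of matched depth, and groups 4 and 5 had medians of 1.03 and 0.24, with 5 of 7 called toward the cord. The motor neuron list had medians of 0.77 and 1.53, with 7 of 14 genes called, all of them less toward the cord in SCA7. Its summed level in WT mice 1 to 5 was 277, 146, 325, 188 and 192 CPM in the medulla. In the WT cord it was 275, 400, 513, 102 and 680 CPM, so WT mice 1 and 4 were not higher in the cord. *Chat* was among the genes called, at 0.93 in SCA7 and 1.53 in WT mice (interaction adjusted p = 0.00127 by edgeR and 0.9999 by DESeq2). It did not pass in every edgeR fit that left out 1 mouse. The dorsal horn list had medians of 0.65 and -0.16, with 18 of 25 called, all toward the cord in SCA7.

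The list medians of the meningeal genes lay on opposite sides in the genotypes, but not every WT mouse followed. All 16 meningeal genes were called for the interaction, against 4.15% of all genes, each more toward the medulla in SCA7. Their median difference was -4.42, and the list median was -2.11 in SCA7 and 1.99 in WT mice. The summed level in WT mice 1 to 5 was 260, 323, 116, 180 and 189 CPM in the medulla and 257, 170, 562, 1843 and 1097 CPM in the cord. In WT mice 1 and 2, whose depths were not matched, the cord was thus not above the medulla. CPM was scaled within each genotype, so these levels compare only roughly between genotypes. The WT medulla range overlapped the SCA7 medulla range of 165 to 542 CPM. The lowest WT cord, at 170 CPM, lay close to the top of the SCA7 cord range of 94.9 to 160 CPM. *Igf2* had 67.1, 89.0, 38.7, 62.6 and 45.0 CPM in the WT medulla and 62.2, 30.0, 204, 747 and 362 CPM in the WT cord, with an interaction of -5.13 ± 0.38 on the log2 scale (DESeq2 adjusted p = 0.0039). *Tagln* (-4.50 ± 0.34, DESeq2 adjusted p = 3.15e-05), *Mgp* (-4.08 ± 0.22, 0.0039) and *Vtn* (-2.54 ± 0.23, 0.00589) were also called by both tools. Of the 13 endothelial and pericyte genes, 7 were called for the interaction, each more toward the medulla in SCA7, and the list medians were -0.35 in SCA7 and 0.39 in WT mice. *Igf2*, *Tagln*, *Mgp* and *Vtn* were called in each of the 10 edgeR fits that left out 1 mouse, and with the mice of matched depth.

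Other genes held in fewer fits. *Gfap* was higher in the cord in both genotypes, by 1.24 in SCA7 and 2.40 in WT mice, with WT levels of 235 to 481 CPM in the medulla and 1605 to 3172 CPM in the cord. Its interaction was -1.15 ± 0.32 (edgeR adjusted p = 0.0132, DESeq2 0.00892), and with the mice of matched depth alone edgeR gave an adjusted p of 0.0705. The Schwann cell list had medians of -2.02 and 1.23. The mitochondrial list had medians of -0.44 and 0.89, and the medulla library of SCA7 mouse 2 enters the first of these. How meninges and roots were removed from each cord is not given in the sources used here, and its part in these differences was not tested.

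**Figure D5:**
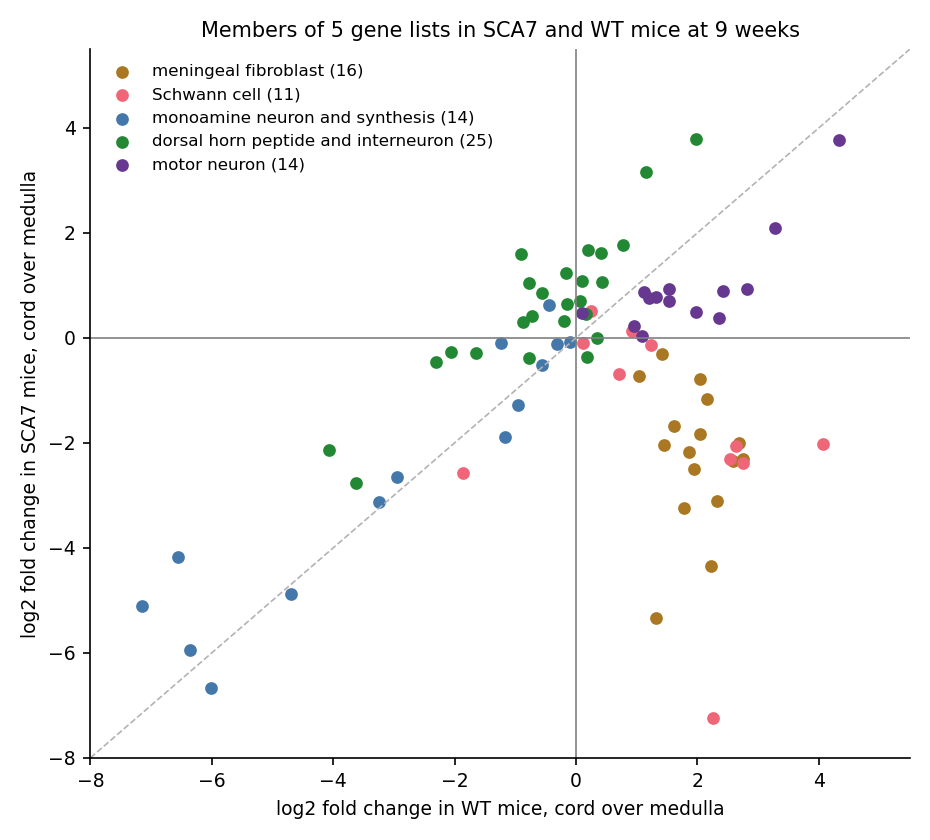
Log2 fold change (cord over medulla) of the members of 5 gene lists in WT mice (x axis) and SCA7 mice (y axis), with the line of equality dashed. The monoamine genes lie along the line, and the 16 meningeal genes lie at positive WT and negative SCA7 values.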

How the data were processed

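RNA from both tissues was sequenced by the authors, who mapped reads to the mouse genome (GRCm38), kept reads with a single location and deposited raw read counts per gene symbol, 1 table per library, with no normalization. The aligner and counting tool are not given in the sources used here. From the deposited counts, CPM with TMM scaling, log2 fold changes (cervical spinal cord over medulla) and p values were obtained with edgeR 4.0.16 under R 4.3.3. Its quasi-likelihood test was used with the mouse as a block, over genes that reached 10 counts in 1 or more libraries. Genes were called at a Benjamini-Hochberg adjusted p under 0.05. Each SE is the size of the log2 fold change over the square root of the F statistic of that test. It is not a spread measured over mice, and it can fall below counting error for genes with few counts in 1 tissue. TMM factors were computed within each genotype. The dispersion trend of edgeR was supplied to the test after its built-in single value had given 0 calls. DESeq2 1.42.0, with the mouse in its design, and limma 3.58.1 were alternatives, tables were read with jsonlite 2.0.0, and the tests were tested on simulated data. WT mice were fitted alike, and the interaction over all 20 libraries. Same-mouse libraries correlated in their deviations from the tissue means at r of 0.535 to 0.937 over 1463 genes, and libraries of other mice of like depth at 0.447 to 0.935. Nothing more is stated on how libraries were made. The p values set each tissue difference against a variation partly shared over genes, and not against that gene's own spread over mice alone. The block absorbs the level of each mouse, the dispersion trend is shared over genes, and the deep pairs weigh most.

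The comparison and its gene lists were chosen with earlier results of these data known. Genes named are the 12 smallest adjusted p values in each direction among genes with the same sign in every mouse, leaving out gene models without a symbol and mitochondrial genes (13 RefSeq symbols), the 4 members of each list with the smallest adjusted p, *Hox* genes by paralog group, and *Atxn7*, *Gfap*, 3 myelin and 4 transporter genes. Results for some of these genes are not reported here. Further list members are given to fill out a role and were chosen after their values were seen. RefSeq GRCm38.p6 gave positions and sequences, and 32501 of 35976 symbols matched. The limit of detection is 3 counts, and intervals are exact 95% intervals that cover counting error only.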

Additional observations from a re-analysis of the deposited data

Results flagged for a closer look

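Outlying libraries were sought in each tissue among named genes with at least 10 mean counts in the shallow libraries, by setting the gap of the highest or lowest of 5 libraries to its neighbour against the range of the group (Dixon's ratio over 0.71). Of 40 groups of libraries 8 held such a library. The rate of about 1 in 20 by chance holds for alike and independent libraries. It does not apply here, because deep and shallow libraries differed in kind and 1 library recurred over genes. The medulla of mouse 2, whose CPM carry its TMM factor of 0.355, accounted for 7 of the 8 groups, with 2301 CPM of *Hsp90aa1*, 341.9 CPM of *Cdkn1a*, 997.3 CPM of *ND6*, 19130 CPM of *ND4L*, 17200 CPM of *ATP8*, 104900 CPM of *COX3* and 3740 CPM of *Mobp*, each the highest of its tissue. The other was *Slc1a3* in the medulla of mouse 1, at 208.9 CPM. Over all 130 named genes 53 of 260 groups held such a library, 18 of them the medulla of mouse 2, but most of these genes had few counts in the shallow libraries.

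The tissue difference differed between SCA7 and WT mice in the edgeR interaction test for 49 of the 130 named genes. Of these, 34 also passed with the mice of matched depth, 5 passed in DESeq2 (*Igf2*, *Tagln*, *Mgp*, *Vtn* and *Gfap*) and 4 passed in all 10 fits that left out 1 mouse (the same without *Gfap*). The values below are SCA7 minus WT on the log2 scale, negative where SCA7 lay more toward the medulla. Meningeal, vessel and plexus genes gave *Igf2* -5.13, *Mgp* -4.08, *Ogn* -6.05, *Slc13a4* -6.94, *Tagln* -4.50, *Vtn* -2.54, *Cdh5* -1.74, *Pecam1* -0.68, *Ttr* -1.39 and *Kcnj13* -6.25. Root and ganglion genes gave *Prx* -6.62 and *Avil* -2.39. The *Hox* genes gave *Hoxb6* 1.85, *Hoxb8* 1.52, *Hoxc6* 1.15, *Hoxa7* 1.496, *Hoxd4* 1.42, *Hoxc4* 1.26, *Hoxa5* 1.72, *Hoxa3* 1.15, *Hoxd3* 1.15 and *Hoxb3* 1.506, all more toward the cord in SCA7. Neuronal genes with positive values were *Syt10* 2.06, *Ebf3* 1.26, *Tac2* 2.15, *Trh* 1.15, *Nts* 1.305, *Cck* 1.35, *Gad2* 1.21, *Grm5* 0.84 and *Cbln3* 1.08. Those with negative values were *Stk32a* -0.78, *Chat* -0.90, *Barhl1* -1.41, *Zic2* -2.19, *Fat2* -4.01, *Nnat* -1.12 and *Slc6a3* -4.73. Glial and growth factor genes gave *Gfap* -1.15, *Bmp4* -2.50, *Slc7a11* -2.43 and *Igfbp5* -1.99. The retinoic acid enzyme *Cyp26b1* gave -1.51, and stress genes gave *Hspb1* -0.92 and *Cdkn1a* -1.09. The mitochondrial genes gave *ND6* -1.46, *ND4L* -2.002, *ATP8* -2.02 and *COX3* -1.62, and the medulla library of SCA7 mouse 2 enters each of these.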

How the results depend on the processing

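The count of genes that differed between the tissues in SCA7 mice moved from 1379 to 237 with DESeq2, 404 with limma-voom and sample weights, 11 of 1463 genes when each library had to reach 10 counts, and 0 in the shallow pairs alone (169 at an unadjusted p under 0.05). The paired fit mattered: with no block for the mouse 576 passed. Leaving out 1 mouse gave 66 to 1723, the lowest without mouse 4, and 96 without mouse 5. The built-in dispersion of edgeR, which was tried first and replaced after its result was seen, gave 0 calls (854 unadjusted) and 2109 without mouse 2. The interaction count of 824 became 11 with no block, 0 of 1004 genes under that filter, 14 with DESeq2, 74 with the built-in dispersion and 30 to 871 without 1 mouse, with 113 without SCA7 mouse 4, 150 without SCA7 mouse 5 and 30 without WT mouse 5. The WT count of 365 became 179 with no block, 1 of 1147 genes under that filter, 73 with DESeq2, 752 with the settings of earlier edgeR releases, 151 with the built-in dispersion and 12 to 216 without 1 mouse, the lowest without mouse 5. Removing the mitochondrial genes, the size factors of DESeq2, library totals, no filter and the deep pairs alone left the SCA7 count between 949 and 1480.

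Of 99 named genes called, 97 kept their direction in every alternative planned. The exceptions were *Agt* (-0.27) and *Hoxa5* (-0.23), both in the shallow pairs, which could test 32 of the 130 named genes. Kept direction is weak evidence, because the alternatives reused these libraries and many genes were named for a shared sign in every mouse. Calls were lost for 43 genes with DESeq2, 57 with limma-voom, 60 without mouse 4 and 56 without mouse 5. Among genes not called, values turned in the shallow pairs for *Cdkn1a* (-0.19), *Mog* (-0.19) and *Mobp* (-0.12), with no block for *Cdkn1a* (-0.080) and *Mobp* (-0.076). *Hsp90aa1* gave 0.098 with limma-voom and 0.10 in the deep pairs. With the built-in dispersion *Cdkn1a* gave -0.032 and *Mog* -0.0017, and, without mouse 2 as well, *Hsp90aa1* gave 0.094, *ND4L* 0.044, *ATP8* 0.10 and *COX3* 0.22. Over the fits that left out 1 mouse, the ranges were -1.77 to 0.0076 for *Scn11a*, -0.42 to 0.095 for *Hsp90aa1*, -0.061 to 0.18 for *Cdkn1a*, -0.039 to 1.25 for *Hoxb3*, -1.74 to 0.045 for *ND4L*, -1.77 to 0.10 for *ATP8*, -1.24 to 0.22 for *COX3* and -0.015 to 0.23 for *Mog*. List medians of over 0.1 in size changed sign for the dorsal horn (-0.23), *Hox* groups 4 and 5 (-0.23) and microglial lists (-0.35) in the shallow pairs, which could test few of their members, for the choroid plexus list (0.23) when each library had to reach 10 counts, for the ependymal (-0.78) and *Hox* groups 1 to 3 lists (-0.24) without mouse 5, for the microglial list also without mouse 4, and for the mitochondrial list in the deep pairs (0.25) and without mouse 2 (0.22). The cause was not tested. At the depth of mice 1 to 3, 43.2% of the genes tested had under 1 mean count, so for these the differences rest on 2 mice.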
